A study of Mus musculus with 14 samples.

Results

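The actin cytoskeleton of microglia was described here through 48 genes of actin and its binding proteins, a list written by gene symbol. All 48 were found among the 14217 genes of the deposited table, and a symbol with several rows is represented by its most abundant row. Microglia are macrophages that live in brain tissue, and they were sorted here as CD11b-positive cells with low CD45 from untreated C57BL/6 mice aged 6 to 8 weeks. The groups were mice kept specific-pathogen-free (SPF, 7 libraries) and mice kept germ-free (GF, 7 libraries), and 3' end libraries of polyadenylated RNA were made from 1000 cells per brain. The labels give no sex, cage or litter and do not state that each library is a separate animal, so p-values measure the spread between these libraries, which may in part be technical.

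Actin monomers assemble into filaments at the cell edge. Thymosins and profilin hold the monomer pool, cofilin severs old filaments, the Arp2/3 complex starts new branches when WASP family proteins activate it, capping proteins stop growth at the fast-growing end, and crosslinkers, membrane linkers and myosins give the network its shape and force. Microglia use this machinery to move their processes through brain tissue and to engulf debris.

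Values are normalized counts as the authors deposited them, and differences are GF minus SPF in log2 of the value plus a pseudocount of 1.44, which understates changes of low genes. The verbs rose and fell mark genes for which limma, fitted over the 8822 genes whose mean reached 7.22 normalized counts, gave a Benjamini-Hochberg adjusted p under 0.05, and every adjusted p below is from that fit unless a setting is named. Depth ranged from 907568 to 1634679 read equivalents in SPF and from 680082, in GF 6, to 1190253 in GF. The share of genes at 0 was 21.9% ± 1.59 in SPF and 25.1% ± 1.54 in GF (mean ± SD, 7 libraries each), and lower depth and fewer detected genes therefore moved with housing. The 8 microglia markers summed to 38735 to 45103 in SPF and 43040 to 49492 in GF, and 2 of them rose and 2 fell. Erythroid transcripts reached 3652 in GF 6 against at most 113 in the other libraries, and class II transcripts reached 3215 in GF 1 against at most 171. Markers of endothelium summed to 66.2 to 98.6 in SPF and 17.4 to 81.2 in GF, with Cldn5 at 0 in all libraries, and the 2 markers of pericytes and smooth muscle in the table to 6.49 to 24.6 and 2.60 to 10.2. The 4 markers of monocytes and macrophages in the table summed to 11.5 to 37.8 in SPF (median 14.1) and 0 to 17.8 in GF (median 1.01), and the neuronal markers to 9.46 to 28.3 and 1.04 to 22.2. Astrocyte markers summed to 164 to 255 in SPF and 156 to 255 in GF, and oligodendrocyte markers to 80.5 to 129 and 59.0 to 124. The part of these in the results below was not tested beyond the values given.

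Of the tested actin genes, 8 passed the test between the housing conditions, and they went both ways. Of the 44 members tested, 5 rose, namely Actb, Coro1c, Arpc1b, Capzb and Capg, and 3 fell, namely Actg1, Arpc2 and Epb41l2. These 8 are 18.2% of the tested members, while 6.76% of all genes tested passed, 3.68% as rises and 3.07% as falls. The gap between these shares depended on how the spread was fitted. Without a mean trend in the spread, 1 of 44 members rose and 1 fell, against 160 rises and 161 falls among 8822 genes. The median log2 difference was 0.06 over the tested members and -0.02 over all genes tested, and 24 members stood above 0 and 20 below. The changes of these 8 lay between a fall of 0.94 and a rise of 0.94 on the log2 scale. The balance moved with the scaling. Deposited totals were 1356633 to 1432735 in SPF and 1418526 to 1520780 in GF. With equal library totals, upper-quartile scaling or quantile normalization, 3 members rose and 5 fell, because Actb and Capzb no longer passed and Tmsb4x and Actr3 did, and over all genes 325 rises and 271 falls became 214 and 427 with equal totals. Equal totals shifted the median of all genes to -0.11, and changes of the members were then -0.03 at the median. Without GF 1, GF 6 and SPF 2 together, 1 member, Arpc1b, rose and 2, Arpc2 and Epb41l2, fell. The share that passed also depended on abundance. With only genes at a mean of at least 20 pseudocounts tested, it was higher both over all genes and among members. There 362 of 5536 genes rose and 248 fell, and of 40 members 5 rose and 4 fell.

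**Figure D1:**
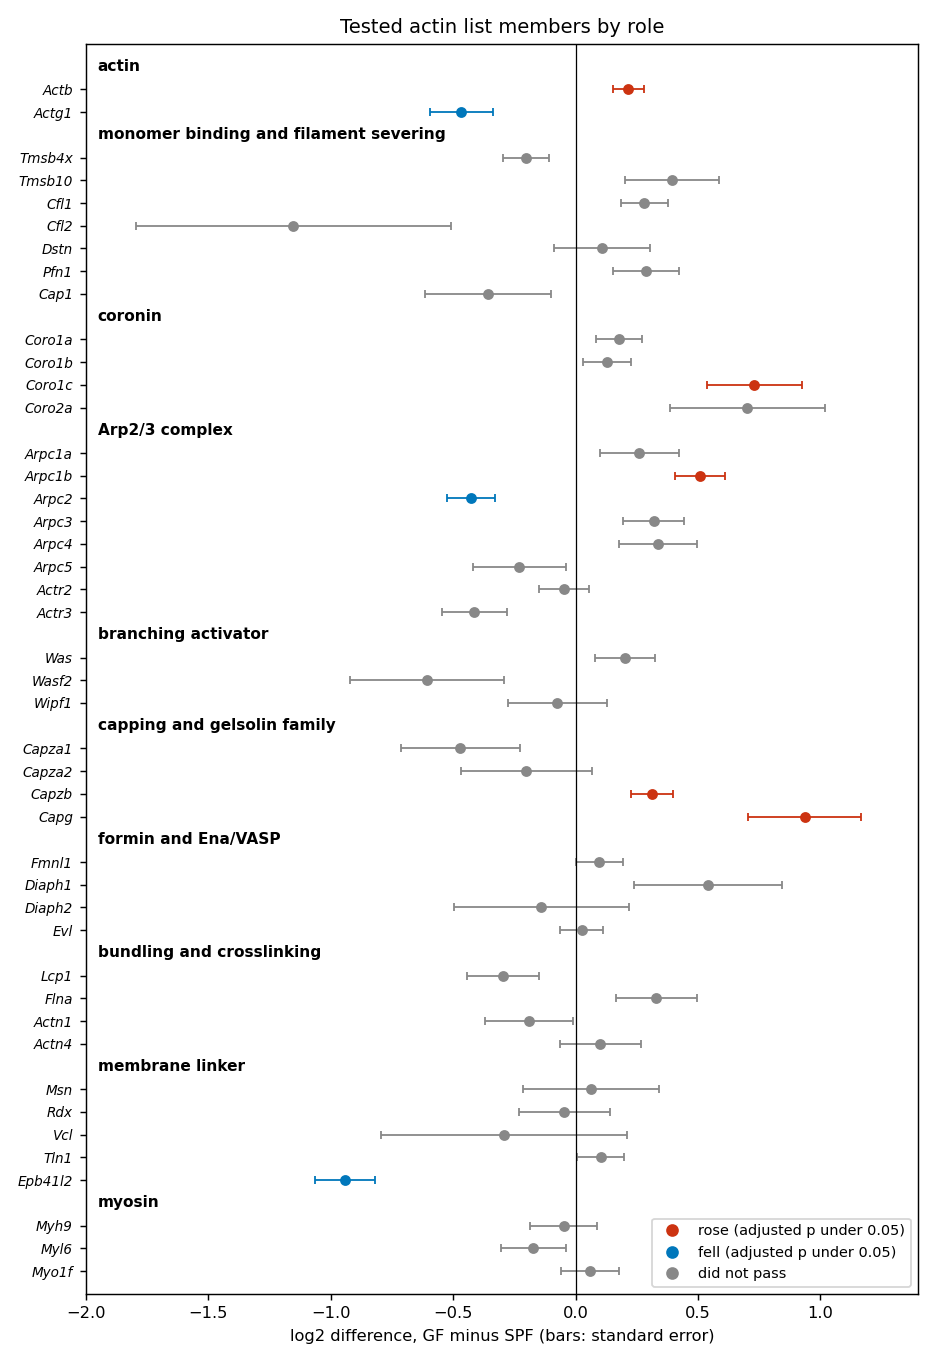
Log2 difference, GF minus SPF, with its standard error for each of the 44 tested members, grouped by role and coloured by the limma call (n = 7 libraries per group). Red and blue points occur together in the actin and Arp2/3 groups, and Epb41l2 at -0.94 and Capg at 0.94 lie at the 2 ends of the called members.

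The cytoplasmic actin genes moved apart. Actb, which encodes beta-actin, the chief actin of motile cells, had a lowest, median and highest value of 20406, 21609 and 24257 in SPF and of 23670, 25120 and 28647 in GF. In 6 of 7 GF libraries it stood above the highest SPF library. Actb rose from 22102 ± 1335 to 25679 ± 1733 (mean ± SD, 7 libraries each), 0.22 ± 0.06 in log2 units (SE, adjusted p = 0.0378). It ranked second of all genes in every library, a rank that quantile normalization fixes, at a difference of 0 (adjusted p = 1). The difference fell to 0.12 with equal library totals (adjusted p = 0.176) and to 0.01 with the abundance trend removed (adjusted p = 0.919), against a range of 0.0135 to 1 over its 29 other settings. Leaving out SPF 2, 3, 4, 5 or 7, or GF 2, 3, 6 or 7, one at a time, also ended the call (adjusted p 0.0511 to 0.0840). The highest value, in GF 6, was in the library with erythroid transcripts, and without GF 6 the difference was 0.19 (adjusted p = 0.0840).

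Actg1 encodes gamma-actin, a nearly identical protein from a gene with its own promoter and untranslated ends. Its values were 231, 323 and 388 (lowest, median, highest) in SPF and 180, 220 and 275 in GF. The groups overlapped, and 4 GF libraries lay below the lowest SPF library. Actg1 fell from 317 ± 56.2 to 228 ± 33.4 (mean ± SD, 7 libraries each), by 0.47 on the log2 scale (SE 0.13, adjusted p = 0.0272). The direction held in all 29 other settings (-0.56 to -0.41), but leaving out SPF 3, 5, 6 or 7, or GF 1 or 6, one at a time, ended the call (adjusted p 0.0520 to 0.0691), as did fits without a mean trend in the spread (0.0966), with no moderation (0.0602) and without GF 1, GF 6 and SPF 2, in a range of 0.0108 to 0.0966. Within each library, where no scaling enters, the ratio of Actb to Actg1 ran from 54.7 to 88.4 in SPF, with a median of 71.7, and from 86.0 to 159 in GF, with a median of 115. In 6 of 7 GF libraries the ratio was above that of every SPF library. Both genes have processed pseudogenes and shared coding sequence, and the handling of reads with several alignments was not stated in the labels.

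Serum response factor binds the CArG box, a short A and T run between CC and GG, in the promoters of many actin genes. The 300-base promoter windows of RefSeq (GRCm38.p6, 250 bases before to 50 after the transcript start) were found for 45 members. Actb had no window and was not searched, so nothing is said of its promoter. The CArG box was searched on both strands, which a palindromic pattern makes a single search, and 4 of 45 members held it, or 8.89%, against 1.81% of the 27025 genes with a window. The members were Actg1, Myl6, Vcl and Arpc4, of which only Actg1 passed the test. The window of Actg1 is shown because, of the called members with a window, it is the one that holds the motif. It lies at chr11:120348446-120348745 on the minus strand, and capitals mark the CArG box, whose first base is 90 bases before the start.
Actg1: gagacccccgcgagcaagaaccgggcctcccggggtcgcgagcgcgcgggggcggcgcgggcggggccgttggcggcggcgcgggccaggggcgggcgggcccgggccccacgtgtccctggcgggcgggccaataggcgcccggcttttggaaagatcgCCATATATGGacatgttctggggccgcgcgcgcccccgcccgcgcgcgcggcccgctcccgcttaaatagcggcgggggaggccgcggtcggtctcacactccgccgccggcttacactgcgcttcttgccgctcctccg
The matches of the other holders, at -50, -227 and -250 from the start, were as follows.
Myl6: CCTTATATGG
Vcl: CCTTATAAGG
Arpc4: CCTAATTTGG
A match describes the letters and is not evidence of binding. Of Srf and its coactivators and partners, 4 of 6 were tested, 0 rose and 0 fell (median -0.09), and the smallest p was that of Elk4, a ternary complex factor gene, at 11.9 ± 8.49 in SPF and 5.37 ± 3.83 in GF (mean ± SD, 7 libraries each, adjusted p = 0.501).

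Among proteins that bind monomers or sever filaments, 0 of 7 tested members passed, with a median of 0.11. Tmsb4x encodes thymosin beta 4, the main store of actin monomers. It stood at 5875, 7317 and 10149 (lowest, median, highest) in SPF and 6161, 6561 and 7319 in GF. SPF libraries were widely spread and included both the highest and the lowest value of all 14. The means were 7675 ± 1501 and 6572 ± 392 (mean ± SD, 7 libraries each), -0.20 ± 0.09 in log2 units (SE, adjusted p = 0.206). With equal library totals the difference was -0.30 (adjusted p = 0.0379), with quantile normalization -0.26 (adjusted p = 0.0247) and with the abundance trend removed -0.38 (adjusted p = 0.00529). With length and GC trends removed it was -0.12 (adjusted p = 0.511, the highest of the 29 settings), and 25 of the 29 settings gave no call.

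Cfl1, the gene of cofilin 1, which severs filaments, had the smallest p of this class. Its values were 2180, 3511 and 4040 in SPF and 3762, 3954 and 4610 in GF. SPF 7 was the lowest library, and 2 GF libraries exceeded every SPF library. The log2 difference was 0.28 ± 0.10 (SE, adjusted p = 0.0808). It passed in 2 of 29 settings, without SPF 1 (adjusted p = 0.0434) and with length and GC trends removed (adjusted p = 0.0496). The difference was 0.18 without SPF 7 (adjusted p = 0.143) and 0.19 with equal library totals (adjusted p = 0.206). With the abundance trend removed it was 0.13 (adjusted p = 0.401, the highest of the settings). The ratio of Cfl1 to Tmsb4x within each library was 0.346 to 0.533 in SPF and 0.577 to 0.635 in GF, with every GF value higher than every SPF value. This pair, like the other pairs whose ratios are given, was chosen after the values were seen, so the ratios are descriptions. Its GF values were tightly grouped, at 0.614 ± 0.0207 against 0.443 ± 0.0691 in SPF (mean ± SD, 7 libraries each). Ratios were also computed for pairs that are not drawn. Arpc1b to Arpc1a was above every SPF library in 1 GF library, and Arpc2 to Actr3 in 2. Tmsb4x to Actb was below every SPF library in 6 GF libraries.

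Pfn1, the gene of profilin 1, which feeds monomers to growing ends, stood at 421 ± 83.0 in SPF and 515 ± 99.0 in GF (mean ± SD, 7 libraries each, adjusted p = 0.207). Tmsb10, a second thymosin gene, had a median of 75.9 in SPF and 88.2 in GF, and its highest value, 188, was in GF 1, the library with high class II transcripts. Its log2 difference was 0.39 with GF 1 and 0.24 without it (adjusted p = 0.230 and 0.455). Cap1, which encodes a cyclase-associated protein that recycles monomers, stood at 55.5 ± 24.3 and 39.9 ± 8.65 (mean ± SD, 7 libraries each, adjusted p = 0.445). Cfl2, the cofilin of muscle, was at 0 in 3 GF libraries and at most 22.6 in any library (adjusted p = 0.306). Dstn, which encodes the cofilin relative destrin, had medians of 63.9 and 64.9 (adjusted p = 0.801). Pfn2 was below the filter, at 0 to 13.5 in SPF and 0 to 6.25 in GF.

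**Figure D2:**
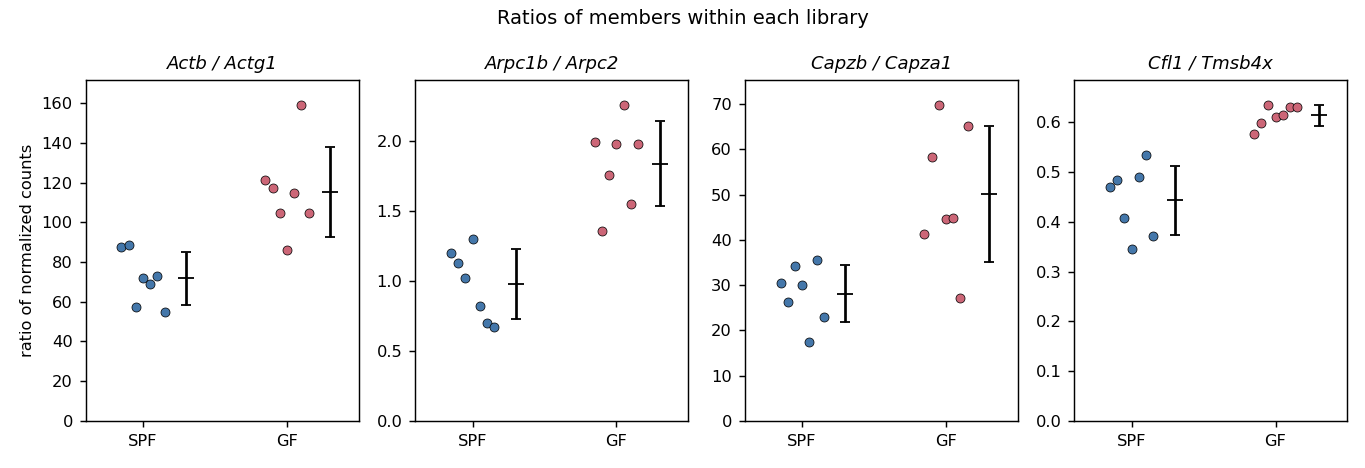
Ratio of the normalized counts of a pair of members in each library, with the mean and SD of 7 libraries beside the points. Arpc1b to Arpc2 (1.35 to 2.26 in GF, 0.671 to 1.30 in SPF) and Cfl1 to Tmsb4x (0.577 to 0.635 in GF, 0.346 to 0.533 in SPF) do not overlap between groups, while Actb to Actg1 and Capzb to Capza1 do in 1 GF library each.

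Subunits of the Arp2/3 complex, which nucleates branches, also moved in both directions. Arpc1b, the subunit isoform typical of blood cells, had values of 656, 834 and 1067 in SPF and 1039, 1276 and 1334 in GF. In 6 of 7 GF libraries it was above every SPF library. Arpc1b rose from 868 ± 152 to 1222 ± 111 (mean ± SD, 7 libraries each), 0.51 ± 0.10 in log2 units (SE, adjusted p = 0.00356). Arpc2, a subunit of the complex's core that contacts the mother filament, was at 739, 901 and 1099 in SPF and at 577, 670 and 815 in GF. In 6 of 7 GF libraries it was below every SPF library. Arpc2 fell from 909 ± 116 to 675 ± 78.8 (mean ± SD, 7 libraries each), by 0.43 on the log2 scale (SE 0.10, adjusted p = 0.00760). Both calls were lost only without a mean trend in the spread, among 29 settings (adjusted p = 0.0558 for Arpc1b and 0.0775 for Arpc2, the highest of their settings, the lowest being 0.00150 and 0.000966).

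The ratio of Arpc1b to Arpc2 was 0.671, 1.02 and 1.30 (lowest, median, highest) in SPF and 1.35, 1.98 and 2.26 in GF, with no overlap. It joins the subunit that rose with the one that fell, so it restates those calls. Actr3, the gene of the actin-related protein Arp3, did not pass, at 194 ± 17.5 in SPF and 147 ± 26.6 in GF (mean ± SD, 7 libraries each), -0.41 ± 0.13 in log2 units (SE, adjusted p = 0.0595). It passed with equal totals (-0.51, adjusted p = 0.0201), upper-quartile scaling, quantile normalization, the abundance trend removed, a higher filter and without GF 1 (adjusted p = 0.0481). In the other 23 settings Actr3 did not pass. Over all 29 its log2 difference ran from -0.51 to -0.18, and its adjusted p reached 0.478. Actr2, which encodes Arp2, was nearly constant in SPF, at 348 to 390, and ran from 288 to 411 in GF (adjusted p = 0.831). Arpc3 and Arpc4, both genes of small subunits, differed by 0.32 and 0.34, Arpc1a, the widely expressed isoform, by 0.26, and Arpc5 by -0.23, and none of them passed (adjusted p 0.131 to 0.520). Over the complex, 1 of 8 rose and 1 fell (median 0.11), and its summed values were 2873 to 3606 in SPF and 3245 to 3689 in GF.

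No activator of the complex passed, of 3 tested (median -0.07). Was, the gene of the Wiskott-Aldrich syndrome protein of blood cells, stood at 315 ± 44.1 in SPF and 364 ± 65.1 in GF (mean ± SD, 7 libraries each, adjusted p = 0.350). Wasf2, which encodes the WAVE2 protein that drives protrusions, ranged from 155 to 814 in SPF and from 106 to 478 in GF. The spread was wide in both groups, with SDs of 54.7% and 55.8% of the mean. Its log2 difference was -0.61 ± 0.32 (SE, adjusted p = 0.266). Wipf1, which encodes a partner that stabilizes the Wiskott-Aldrich syndrome protein, had medians of 50.2 and 45.4 (adjusted p = 0.871).

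All 4 coronin genes stood above 0 (median 0.44), and 1 rose. Coronins bind filaments and guide both cofilin and the Arp2/3 complex. Coro1c had values of 48.6, 62.9 and 84.4 in SPF and 64.3, 109 and 175 in GF. In 6 of 7 GF libraries it was above every SPF library. Coro1c rose from 66.0 ± 12.9 to 113 ± 35.2 (mean ± SD, 7 libraries each), 0.73 ± 0.19 in log2 units (SE, adjusted p = 0.0219), and 4 of 29 settings ended its call, one being the fit without GF 3, its highest library (0.62, adjusted p = 0.0555, in a range of 0.00643 to 0.0671). Coro1a, the coronin of leukocytes, stood at 1645 ± 263 and 1844 ± 138 (mean ± SD, 7 libraries each, adjusted p = 0.282), Coro1b at 567 ± 47.2 and 623 ± 77.3 (adjusted p = 0.472), and Coro2a at 27.5 ± 12.6 and 42.5 ± 13.8 (adjusted p = 0.192).

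**Figure D3:**
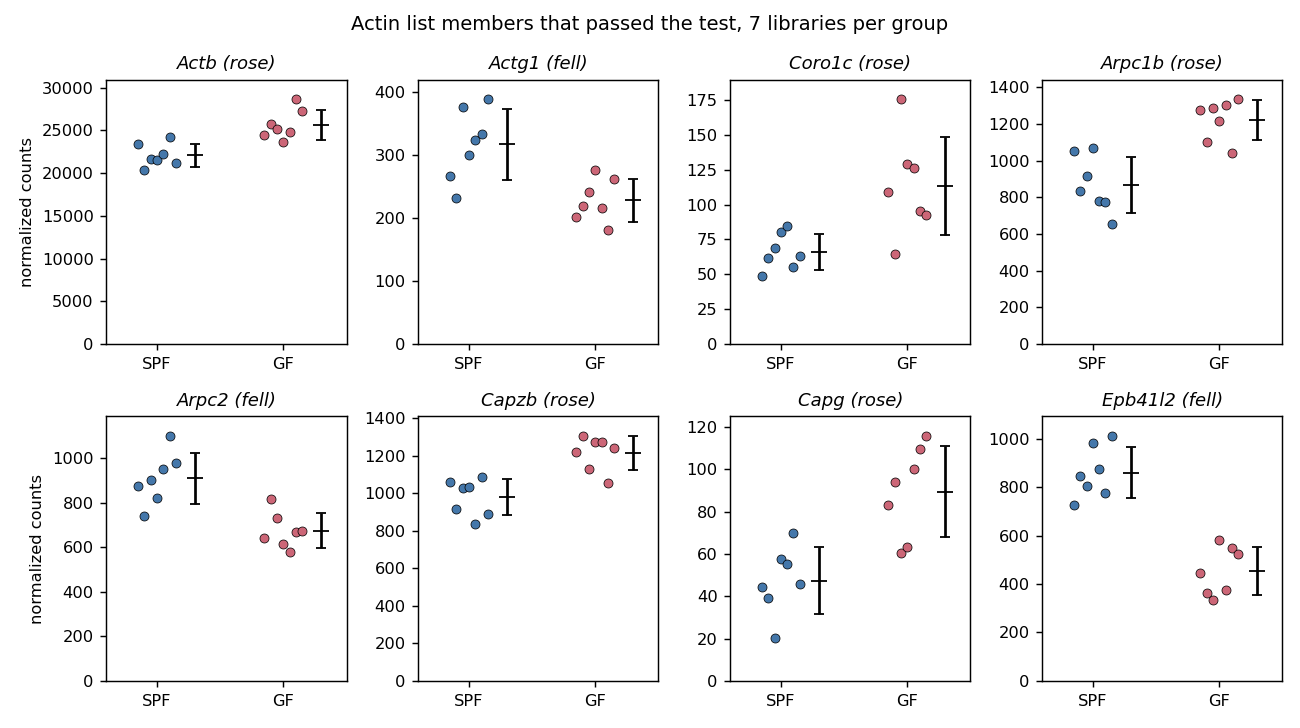
Normalized counts of the 8 members that passed, in each of 7 SPF and 7 GF libraries, with the mean and SD beside the points and axes from 0. Epb41l2 alone shows no overlap, at 726 to 1011 in SPF and 335 to 582 in GF.

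Among capping genes 2 of 4 tested rose and 0 fell (median 0.06). Capg encodes a gelsolin relative of macrophages that caps filaments without severing them. It was at 20.4, 45.6 and 69.7 in SPF and 60.3, 93.9 and 116 in GF. In 5 of 7 GF libraries it exceeded every SPF library, and the other two lay among the highest SPF values. Capg rose from 47.4 ± 15.7 to 89.4 ± 21.6 (mean ± SD, 7 libraries each), 0.94 ± 0.23 in log2 units (SE, adjusted p = 0.0134), or 1.91-fold. This call held when any single library was omitted (adjusted p 0.00986 to 0.0317) and was lost without GF 1, GF 6 and SPF 2 (0.85, adjusted p = 0.0799) and with no moderation of the spread.

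Capzb, the beta subunit gene of the capping protein heterodimer, stood at 838, 1031 and 1085 in SPF and 1054, 1244 and 1306 in GF. GF 6, with the fewest reads, was the only GF library within the SPF range. Capzb rose from 980 ± 96.1 to 1215 ± 90.9 (mean ± SD, 7 libraries each), 0.31 ± 0.08 in log2 units (SE, adjusted p = 0.0234). The call was lost in 9 of 29 settings (adjusted p over all settings 0.0157 to 0.156). The rise was 0.22 with equal library totals (adjusted p = 0.105) and 0.19 with the abundance trend removed (adjusted p = 0.156). Upper-quartile scaling, quantile normalization, no mean trend in the spread and omission of GF 1, GF 6 and SPF 2 also ended the call. So did the replicate number as a block (adjusted p = 0.0556) and omission of SPF 5 or GF 2 (adjusted p = 0.0605 and 0.0524). Capza1, which encodes one alpha subunit, lay at 35.9 ± 6.09 in SPF and 26.2 ± 7.58 in GF (mean ± SD, 7 libraries each), -0.47 ± 0.24 in log2 units (SE, adjusted p = 0.260). Capza2, the other alpha subunit gene, had medians of 45.1 and 40.6 (adjusted p = 0.715). The ratio of Capzb to Capza1 was 17.4 to 35.5 in SPF and 27.2 to 69.8 in GF, above the SPF range in 6 of 7 GF libraries. Gsn, the gene of gelsolin, which severs and caps filaments, was below the filter, at 0 to 9.73 in SPF, with 2 libraries at 0, and at 0.995 to 17.7 in GF, highest in GF 1.

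Formins and Ena/VASP proteins, which lengthen unbranched filaments, gave 0 rises and 0 falls of 4 tested (median 0.06). Evl had means of 705 ± 76.5 and 715 ± 44.6 (mean ± SD, 7 libraries each), 0.03 ± 0.09 in log2 units (SE, adjusted p = 0.900) whose sign changed with scaling. Fmnl1, a leukocyte formin gene, stood at 455 ± 55.4 and 484 ± 33.1 (mean ± SD, 7 libraries each, adjusted p = 0.605). Diaph1 and Diaph2, listed under the older symbols DIAP1 and DIAP2, encode formins, and had medians of 18.7 and 23.9 (adjusted p = 0.305) and of 14.1 and 12.6 (adjusted p = 0.864). Enah was below the filter, at 10.2 in SPF 3, 0.591 in SPF 2 and listed at 0 in the other 5 SPF and all 7 GF libraries.

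No bundling or crosslinking gene passed, of 4 tested (median -0.04). Lcp1, the gene of the leukocyte bundling protein L-plastin, stood at 242 ± 43.7 in SPF and 198 ± 45.1 in GF (mean ± SD, 7 libraries each), -0.30 ± 0.15 in log2 units (SE, adjusted p = 0.238). Flna, the gene of filamin A, which joins filaments at right angles, stood at 94.5 ± 15.8 and 120 ± 25.9 (mean ± SD, 7 libraries each, adjusted p = 0.241). In 5 of 7 GF libraries Flna was above every SPF library, and the groups overlapped. Actn4, an alpha-actinin gene, was at 300 ± 70.0 and 325 ± 100.2 (mean ± SD, 7 libraries each, adjusted p = 0.773), with its highest value, 524, in GF 1, and its relative Actn1 was at 108 ± 24.1 and 95.7 ± 27.8 (adjusted p = 0.586).

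Epb41l2 was the most clearly changed member. It encodes a band 4.1 family protein that ties spectrin and actin to the membrane, and is listed under the older symbol EPB4.1L2. Its values were 726, 844 and 1011 (lowest, median, highest) in SPF and 335, 446 and 582 in GF. All 7 GF libraries lay below all 7 SPF libraries, which was so of 1 of 44 members, of 0.895% of all genes tested, and of 2.18% of them in either direction (1.28% with GF higher). Epb41l2 fell from 860 ± 105 to 453 ± 99.6 (mean ± SD, 7 libraries each), by 0.94 on the log2 scale (SE 0.12, adjusted p = 2.74e-05), to 0.520 of the SPF level. The call held in all 29 other settings, with log2 differences from -1.06 to -0.80 and adjusted p up to 0.00664.

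The other membrane linkers did not pass (1 of 5 fell and 0 rose, median -0.05). Tln1, the gene of talin 1, which couples integrins to actin, was at 1149 ± 182 in SPF and 1223 ± 93.4 in GF (mean ± SD, 7 libraries each, adjusted p = 0.576), a difference of 0.10 that turned slightly negative with quantile normalization. Msn, the gene of moesin, which is the main ezrin family member of leukocytes, ranged from 88.4 to 286 in SPF and from 94.6 to 393 in GF. Like Wasf2 it was widely spread in both groups, with SDs of 40.8% and 49.9% of the mean (adjusted p = 0.923). Rdx, the gene of radixin, had medians of 132 and 126 (adjusted p = 0.911), and Vcl, the gene of vinculin, of 10.4 and 6.31 (adjusted p = 0.786). Ezr, the gene of ezrin, was below the filter, at 0 in 4 SPF and 2 GF libraries and at most 11.5. Vcl, with a mean of 7.73, lay just inside the filter, and Gsn, with group means of 2.16 and 8.51, just outside it.

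Myosin genes gave 0 rises and 0 falls of 3 tested (median -0.05). Myh9, the heavy chain gene of nonmuscle myosin IIA, was at 282 ± 37.1 and 277 ± 64.6 (mean ± SD, 7 libraries each), -0.05 ± 0.14 in log2 units (SE, adjusted p = 0.876) that took the other sign without SPF 7, GF 5 or GF 7. Myl6, a light chain gene, was at 140 ± 20.5 and 123 ± 9.79 (mean ± SD, 7 libraries each, adjusted p = 0.487). Myo1f, a class I myosin gene of leukocytes, was at 234 ± 28.8 and 244 ± 29.5 (mean ± SD, 7 libraries each, adjusted p = 0.822).

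**Figure D4:**
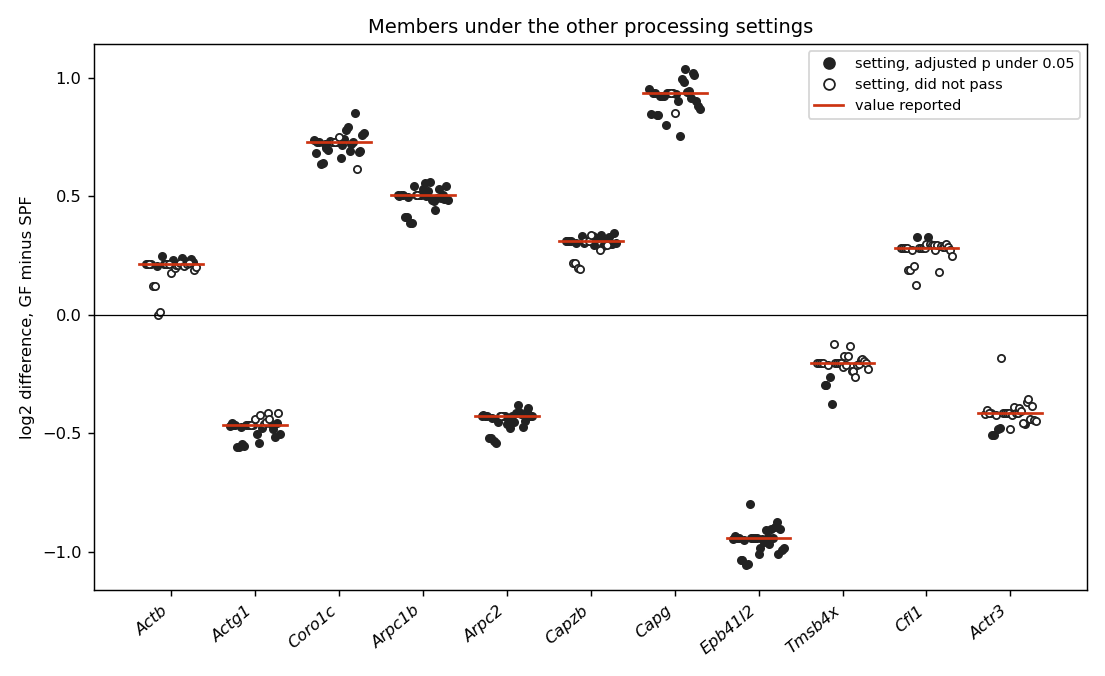
Log2 difference, GF minus SPF, of the 8 called members and of Tmsb4x, Cfl1 and Actr3 in 29 other processing settings (points, filled where the adjusted p was under 0.05), with the reported value as a line. Epb41l2 is filled throughout and spans -1.06 to -0.80, whereas Actb spans 0 to 0.25 and is open in 17 settings.

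The members together took a median of 4.22% of the SPF libraries and 4.29% of the GF libraries, and the highest library was at 4.49% in each group. Actin genes were the largest class in it, at 1.92% to 2.24% in SPF and 2.11% to 2.44% in GF. Monomer-binding and severing genes took 0.824% to 1.30% in SPF and 0.914% to 1.05% in GF. Membrane linkers took a median of 0.215% in SPF and 0.170% in GF. The summed values of this class had medians of 2361 in SPF and 1994 in GF, and those of Epb41l2 alone 844 and 446. The other 4 tested linkers did not pass. These shares are of normalized 3' end counts, which are not divided by transcript length, and in bulk libraries fewer cells and less RNA per cell cannot be told apart.

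Related genes outside the members were taken from lists of the same pathways. Of 34 other actin-binding proteins tested, 0 rose and 0 fell (median -0.03). The smallest p there was that of Lsp1, a leukocyte filament-binding protein gene, at 86.4 ± 13.8 and 137 ± 58.4 (mean ± SD, 7 libraries each, adjusted p = 0.0880). Its highest value, 244, was in GF 1. Lsp1 passed without GF 4. With single libraries omitted its log2 difference ran from 0.42 to 0.69 and its adjusted p from 0.0332 to 0.198. Of 11 WAVE and WASH complex genes and partners 0 rose and 1 fell (median -0.09), namely Cttnbp2nl, from 189 ± 32.5 to 126 ± 18.7 (mean ± SD, 7 libraries each, adjusted p = 0.0158), lost without GF 1, GF 6 and SPF 2 and in 2 other settings. Of 10 tubulins 0 rose and 0 fell (median 0.18), with the smallest p for Tubb5, at 252 ± 28.8 and 330 ± 64.7 (mean ± SD, 7 libraries each, adjusted p = 0.0721). Tubb5 passed without GF 3, and its adjusted p ran from 0.0373 to 0.154 with single libraries omitted.

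Among 21 integrins and adhesion partners 1 rose and 3 fell (median 0.03). Itga6, the integrin alpha 6 gene, whose product binds laminin, fell from 277 ± 39.7 to 173 ± 37.7 (mean ± SD, 7 libraries each, adjusted p = 0.00400). Parvg, the gene of gamma-parvin, a leukocyte adaptor between integrins and actin, fell from 618 ± 41.1 to 465 ± 78.2 (mean ± SD, 7 libraries each, adjusted p = 0.0158), a call lost without GF 1, GF 6 and SPF 2 (adjusted p = 0.125) and without a mean trend. Itgav, the integrin alpha V gene, fell from 50.7 ± 17.6 to 23.0 ± 10.1 (adjusted p = 0.0241), a call lost without SPF 5 or SPF 7 (adjusted p 0.0586 to 0.0651) and in 3 other settings. Itgb5, its beta 5 partner gene, rose by 0.28 ± 0.08 (log2, SE, adjusted p = 0.0404), which 19 of 29 settings ended, including each fit without SPF 2, 5, 6 or 7 or without GF 1, 2, 3, 5 or 7 (adjusted p 0.0595 to 0.0894).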

How the data were processed

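The submitters' processing notes name TopHat and the build mm9. A version, a counting tool, strand use and the scaling method were not stated there. The authors deposited a normalized signal per RefSeq transcript, called normalized counts here, with totals of 1356633 to 1520780 per library. Most positive values of a library (84.5% to 86.7%) were whole multiples of 1 step within 0.01, which gave depth in read equivalents, but the remaining fractions kept a count model from being used.

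The 18487 rows became 14217 genes, keeping the row with the highest mean; 217 rows without a symbol were named by accession from RefSeq (GRCm38.p6). Of the members, 10 had several rows, 5 of them with differing values. Values were taken as log2(value + 1.44), the mean total divided by 1e6. Genes with a mean of at least 7.22, or 5 pseudocounts, were tested by limma 3.58.1 (two-sided, spread moderated with a mean trend, R 4.3.3) after a check on simulated data. The groups came from sample titles. Replicate numbers did not pair libraries (see the closing section). All 48 members matched RefSeq by accession.

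The members and lists were chosen with earlier results of these data known, so no p is adjusted over a list and lists are described by counts and medians. Values are given for members past the threshold and, per role, for the member with the highest mean and the one with the smallest p, with the other members given briefly; of each pathway list up to 4 called genes, or the gene with the smallest p. Alternatives were other pseudocounts, filters, scalings, trend removals, row sums, moderation, the replicate number as a block and omission of libraries. GENCODE M21 supplied the lengths and GC contents. Some pathway results are not reported here.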

Additional observations from a re-analysis of the deposited data

Results flagged for a closer look

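Of 88 sets of 7 libraries, 1 per tested member and group, 5 held a library far from the other 6 by Dixon's test at 95%, where chance gives about 1 in 20. Tmsb10 stood at 188 in GF 1, with the next GF library at 109, and GF 1 also held 59.3 of Cap1 against at most 37.9 in the other GF libraries. GF 1 is the library with high class II transcripts. Without it the log2 difference of Tmsb10 was 0.24 (adjusted p = 0.455) and that of Cap1 was -0.45 (adjusted p = 0.342), by limma. Arpc1a was lowest in SPF 2, at 60.3, Myh9 highest in SPF 7, at 359, and Myo1f lowest in SPF 6, at 175. None of these members passed the test with or without the library named. The cause of these values was not tested.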

How the results depend on the processing

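Of the 29 settings, counts of genes over all tested (325 rose, 271 fell) and of members (5 and 3) moved by over 1.5 times as follows, and the cause was not tested. With equal library totals 214 genes rose and 427 fell, with upper-quartile scaling 204 and 424, and in both 3 members rose and 5 fell. Quantile normalization and removal of the abundance trend also gave 3 and 5 members. With length and GC trends removed 171 genes fell. Without a mean trend in the spread 160 and 161 genes and 1 and 1 member passed. With no moderation 172 genes fell and 3 members rose. Without GF 1, GF 6 and SPF 2, 154 and 166 genes passed and 1 member rose. With single libraries omitted, 242 to 337 genes rose and 171, without SPF 7, to 291 fell, and 3 to 6 members rose and 2 to 3 fell; 3 rose without SPF 5, GF 2 or GF 3. With the replicate number as a block 286 genes rose and 241 fell, and 3 members rose and 3 fell. Same-numbered libraries were not paired by the data: correlations of their deviations ran from -0.056 to 0.047, and 0 of 7 numbers gave the best correlation for its own pair.

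Sign changes were confined to members that did not pass in either fit. Evl gave -0.067 with equal totals, -0.066 with upper-quartile scaling, -0.11 with quantile normalization, -0.084 with the abundance trend and -0.016 with length and GC trends removed, and -0.0051 to 0.058 with single libraries omitted. Tln1 gave -0.0025 with quantile normalization and -0.019 with the abundance trend removed. Actn4 gave -0.085 without GF 1, GF 6 and SPF 2 and -0.022 to 0.17, and Myh9 -0.12 to 0.037, with single libraries omitted. Actr2 gave 0.29, Wipf1 0.062, Capza2 0.14, Diaph2 0.11 and Rdx 0.27 with length and GC trends removed. With equal totals and upper-quartile scaling Msn gave -0.029 in both and Myo1f -0.033 in both. With quantile normalization Msn gave -0.0040, Myo1f -0.030 and Diaph2 0.0062. With the abundance trend removed Msn gave -0.0085, Myo1f -0.022, Fmnl1 -0.0054 and Diaph2 0.0019. Rdx gave 0.082 without GF 1, GF 6 and SPF 2. With single libraries omitted Actr2 ran from -0.084 to 0.0014, Diaph2 from -0.26 to 0.0047, Msn from -0.12 to 0.24, Rdx from -0.16 to 0.055 and Myo1f from -0.0094 to 0.0998. Over all tested members and the pathway genes computed beside them, 1601 comparisons with a setting kept direction and call, 77 lost the call, 14 gained it and 41 changed sign. Members at under 20 normalized counts, such as Cfl2, Vcl and Diaph2, rest on few reads, and a missing call there shows little.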

Other observations

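Wasf2 and Msn were widely spread within both groups, and they and Rdx were chosen after the values were seen. The p-values below, adjusted or not, do not allow for that choice among all members, so these correlations are descriptions. Within SPF, log2 values of Wasf2 and Msn had r = 0.84 (exact permutation p = 0.0190, adjusted p = 0.0685) and rho = 0.82 (exact permutation p = 0.0341, adjusted p = 0.102) over 7 libraries. Within GF they had r = 0.85 (exact permutation p = 0.0228, adjusted p = 0.0685) and rho = 0.86 (exact permutation p = 0.0238, adjusted p = 0.102) over 7 libraries. With the 2 libraries farthest from the median of Wasf2 left out, r was 0.87 in SPF and 0.75 in GF. Neither passed the Benjamini-Hochberg adjustment over the 6 relations of the 3 genes in 2 groups. Msn and Rdx had r = 0.74 in each group (exact permutation p = 0.0615 in SPF and 0.0671 in GF, adjusted p = 0.101), rho = 0.75 and 0.68 (exact permutation p = 0.0663 and 0.110, adjusted p = 0.110), and r = 0.75 and 0.48 without 2 libraries. Wasf2 and Rdx had r = 0.65 and 0.55 (exact permutation p = 0.106 and 0.208, adjusted p = 0.127 and 0.208), rho = 0.68 in each group (exact permutation p = 0.110, adjusted p = 0.110), and r fell to 0.39 and 0.15 without 2 libraries. Leaving out extreme libraries narrows the range and leaves few points, so a lower r does not show that a relation rests on them. The libraries share their processing and depth differs among them, and the cause of the shared spread was not tested.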
